A study of Homo sapiens with 4 samples.

Results

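The 40 genes described here act in mitosis and in the G2/M transition, and were taken by name from a list of 40, out of 18417 genes that have a probe set of their own on the arrays. Of the 40, 39 had such a probe set and all 39 lay above the filter on dim genes. The exception was CENPA, the histone H3 variant of the centromere, whose probe set (8040712) also carries the symbol SLC35F6. RNA came from DAOY, an established human medulloblastoma cell line, and was hybridised to 4 arrays. Of these, 3 came from cells with a short hairpin RNA (shRNA) against ZFX, an X-linked zinc finger protein that binds DNA and regulates transcription, named H2, H3 and H4 (genotype ZFX KD, 1 array each). The last came from cells with a scrambled hairpin that has no target (SCR, genotype Ctrl). All 4 cultures, SCR included, were exposed to lentivirus for 16 to 24 hours, recovered for 48 hours, and were then kept in 2 ug/mL puromycin for about 48 hours before lysis. Each hairpin was thus measured once, and so was SCR. The p-values draw on the spread between the 3 knockdown arrays and on that of all genes, and on no spread of SCR.

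Mitotic entry is driven by CDK1 bound to cyclin B, which the CDC25 phosphatases switch on and the kinases PLK1 and AURKA help to trigger. Kinetochores then join chromosomes to the spindle under a checkpoint of BUB1, BUB1B and TTK, until CDC20 activates the anaphase-promoting complex (APC/C), a ubiquitin ligase, and separase cuts cohesin. Transcripts of these genes peak together in G2 and M, through CHR elements and CCAAT boxes in their promoters that bind the MuvB complexes with FOXM1 or MYBL2 and the factor NF-Y. In bulk RNA such as this, fewer cells in G2 or M and less of the transcript in each such cell cannot be told apart.

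To show the elements that this class shares, 4 promoters are printed, from the members lowest (BUB1) and highest (PLK1) against SCR and from 2 members close to it. They are RefSeq sequences of GRCh38.p14, from 250 bases before to 50 after the annotated start, with capitals for every TTTGAA (the CHR letters), TTCGAA (a CHR variant), CCAAT and AGGCCT (letters of the ZFX binding motif) on either strand.
BUB1, chr2:110678014-110678313, minus strand: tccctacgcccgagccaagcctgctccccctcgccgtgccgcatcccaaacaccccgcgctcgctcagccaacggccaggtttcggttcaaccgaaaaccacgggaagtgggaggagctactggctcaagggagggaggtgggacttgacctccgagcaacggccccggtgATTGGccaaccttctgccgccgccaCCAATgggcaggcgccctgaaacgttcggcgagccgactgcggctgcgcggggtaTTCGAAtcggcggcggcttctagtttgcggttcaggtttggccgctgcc
PLK1, chr16:23678639-23678938, plus strand: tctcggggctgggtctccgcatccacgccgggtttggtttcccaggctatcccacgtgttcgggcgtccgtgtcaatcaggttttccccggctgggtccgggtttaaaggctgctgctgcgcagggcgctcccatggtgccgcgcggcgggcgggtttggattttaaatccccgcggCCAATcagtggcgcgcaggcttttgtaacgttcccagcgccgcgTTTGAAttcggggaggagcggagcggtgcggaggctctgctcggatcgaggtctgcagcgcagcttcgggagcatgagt
CCNB1, chr5:69166900-69167199, plus strand: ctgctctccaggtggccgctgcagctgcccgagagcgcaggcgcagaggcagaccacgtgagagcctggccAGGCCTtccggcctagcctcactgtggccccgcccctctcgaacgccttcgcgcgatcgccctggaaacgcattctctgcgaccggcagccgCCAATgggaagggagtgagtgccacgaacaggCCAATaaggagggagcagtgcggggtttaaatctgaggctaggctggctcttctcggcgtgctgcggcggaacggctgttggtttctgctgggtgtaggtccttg
CDC20, chr1:43358731-43359030, plus strand: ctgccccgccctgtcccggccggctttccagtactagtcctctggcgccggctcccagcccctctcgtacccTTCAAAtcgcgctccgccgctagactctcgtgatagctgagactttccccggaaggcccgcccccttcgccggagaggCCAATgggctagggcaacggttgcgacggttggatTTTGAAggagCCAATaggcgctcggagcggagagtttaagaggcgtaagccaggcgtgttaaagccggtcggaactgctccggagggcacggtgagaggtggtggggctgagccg

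In PLK1 the TTTGAA lies at -29 to -24 from the start and the CCAAT at -73 to -69, while BUB1 holds its TTCGAA at 2 to 7 and CCAAT letters on both strands upstream of the start. The promoter table held 44 promoters of 34 members. TTTGAA stood in 28 of the 44 (63.6%), against 15.2% of all 35116 promoters of this length. CCAAT stood in 33 (75%), against 34.6% of all, and both motifs together in 23 (52.3%), against 5.90%. TTCGAA was found in 3 of the 44 (6.82%), against 1.45% of all. AGGCCT was found in 4 of the 44 (9.09%), against 10.9% of all, in CCNB1, CDK1 and CDC25B. A TTTGAA and a CCAAT overlapped in CDCA8 and MKI67, and no other sites of different motifs overlapped in the members. CDC25C, with 4 promoters, and CDC25B, also with 4, weigh most in these shares. Among measured members with a promoter in the table, the mean log2 differences described below had a median of -0.014 over the 24 with TTTGAA in at least 1 promoter, and of -0.032 over the 9 without.

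Mitotic transcripts stayed close to their level in SCR cells on all 3 knockdown arrays, although ZFX itself was lower on each. ZFX (probe set 8166500) read 744.9, 749.6 and 995.6 with H2, H3 and H4, against 1430 in SCR. Over the 39 members the median of the mean log2 difference was -0.0092, against -0.035 over all 13813 genes tested. The members' means ran from -0.29 for BUB1 to 0.19 for PLK1. With all 3 hairpins 9 members were lower than SCR, where the background over all genes was 30.6%, and 6 were higher, where it was 16.9%. That is 23.1% and 15.4% of the 39, and the other 24 members had SCR inside the range of the knockdown arrays. At least 1.2-fold lower with every hairpin were 0 members (background 2.94%), and 0 were 1.2-fold higher (background 0.709%).

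In limma's moderated test of the 3 knockdown arrays against SCR, 0 of the 39 members passed an adjusted p of 0.05, and percent called over all genes was 0. The smallest adjusted p of any gene was 0.9998 in limma. At an unadjusted p under 0.05 there were 0 members, against 3.23% of all genes. limma's 95% intervals give the sizes of change that these arrays could have missed, if the lone SCR array varied like the knockdown arrays. The error of SCR itself, which every difference shares, was not measured. For 31 of the 39 members (79.5%) the interval lay inside a 1.5-fold change either way, as for 69.0% of all genes. For all 39 it lay inside a 2-fold change, as for 93.6% of all genes. Only 4 intervals lay inside a 1.2-fold change, those of CCNB2, PRC1, ECT2 and TOP2A, so changes of that size were mostly below what 4 arrays could resolve.

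**Figure D1:**
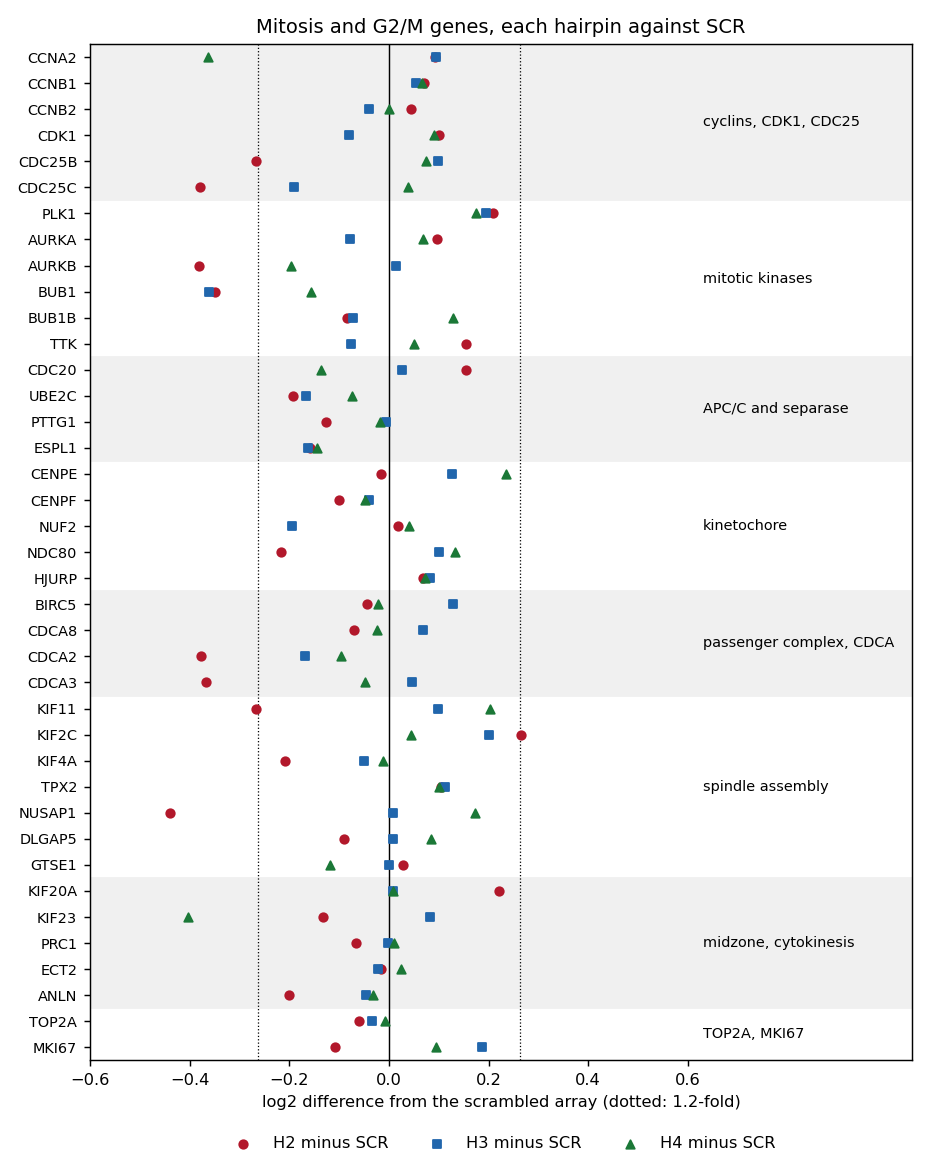
Each row is 1 of the 39 measured genes, grouped by role, and each point is the log2 difference of 1 knockdown array (H2 circle, H3 square, H4 triangle) from SCR. Dotted lines mark 1.2-fold. Most points lie inside them, while 8 H2 points, 1 H3 point and 2 H4 points lie left of the lower line and 1 H2 point (KIF2C) just right of the upper one.

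**Figure D2:**
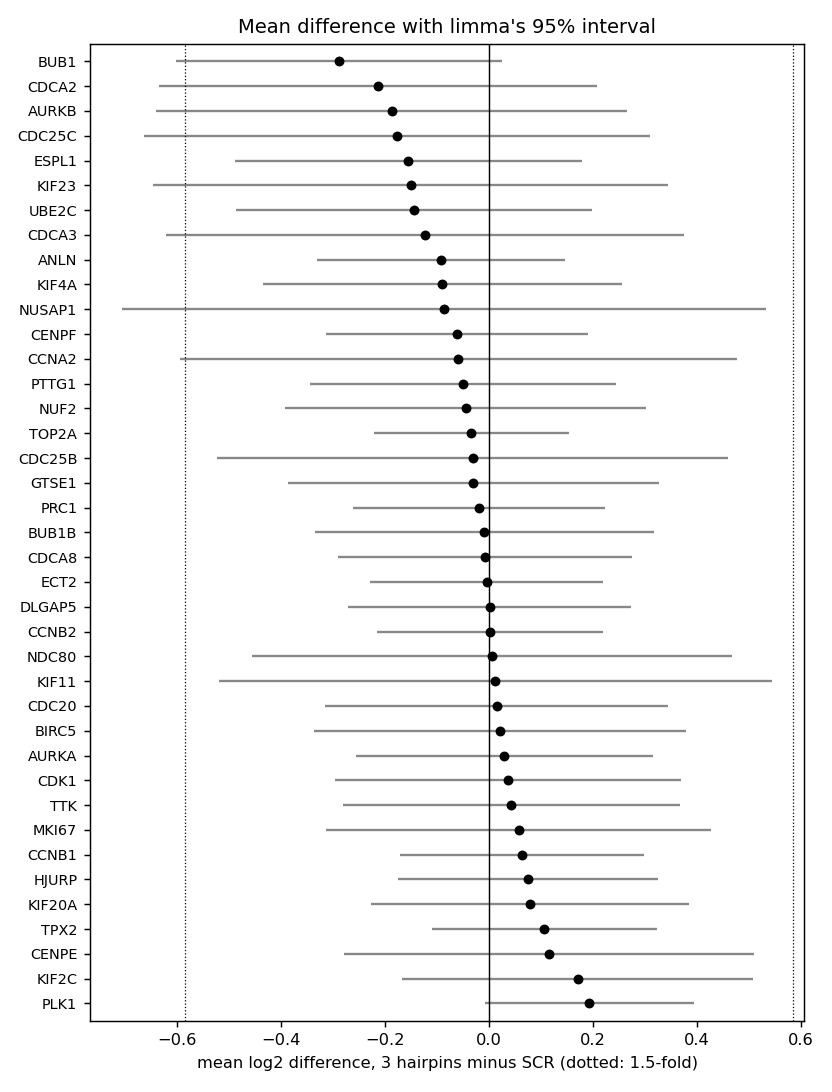
Points show the mean log2 difference of the 3 knockdown arrays from SCR and lines limma's 95% interval, with dotted lines at 1.5-fold. All intervals include 0, and those of 8 genes cross the lower dotted line.

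Cyclins and the kinase they activate differed little from SCR. CCNB1, cyclin B1, read 4800, 4745 and 4789 with H2, H3 and H4, against 4571 in SCR. All 3 knockdown arrays were slightly higher and nearly equal to each other, with a mean log2 difference of 0.064 ± 0.0087 (SD, n = 3 hairpins, limma 95% interval -0.17 to 0.30). SDs of this kind leave out the error of the lone SCR array, which every difference shares. CDK1 read 2978, 2628 and 2958 with the hairpins, against 2779 in SCR, so H3 was below SCR and the others above (mean 0.036 ± 0.10). CCNB2, cyclin B2, spanned only 6575 to 6970 over the knockdown arrays, around 6755 in SCR. CCNA2, cyclin A2, read 4329 and 4337 with H2 and H3 but 3160 with H4, against 4063 in SCR, log2 differences of 0.092, 0.094 and -0.36. The phosphatase CDC25C, which removes the inhibitory phosphates of CDK1, read 1524, 1737 and 2035, against 1982 in SCR. H2 was lowest and H4 was just above SCR (mean -0.18 ± 0.21, limma 95% interval -0.66 to 0.31). Its relative CDC25B lay 0.27 below SCR on the log2 scale with H2, and 0.098 and 0.073 above it with H3 and H4.

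Among the mitotic kinases lay both ends of the range. PLK1, which acts at centrosomes, kinetochores and in cytokinesis, read 7492, 7416 and 7323 with H2, H3 and H4, against 6483 in SCR. The 3 knockdown arrays were within 0.033 of each other and all above SCR, a mean log2 difference of 0.19 ± 0.017 (SD, n = 3) or 1.14-fold. limma gave a 95% interval of -0.0083 to 0.39 and an unadjusted p of 0.0571, with an adjusted p of 0.9998. BUB1, a checkpoint kinase that recruits shugoshin to centromeres, read 4261, 4230 and 4874, against 5431 in SCR. It was below SCR on every knockdown array, least with H4, at 81.8% of the SCR level on average (mean -0.29 ± 0.12, limma 95% interval -0.60 to 0.024, unadjusted p = 0.0642, adjusted p = 0.9998). AURKB, the kinase of the chromosomal passenger complex, read 2340, 3077 and 2657, against 3046 in SCR. Only H2 and H4 were lower there, and the mean of -0.19 ± 0.20 was no larger than the spread between hairpins. AURKA, the spindle pole kinase, read 5216, 4622 and 5117, against 4879 in SCR, on both sides of it (mean 0.029 ± 0.094). BUB1B, which inhibits CDC20, and TTK, which starts the checkpoint signal, had log2 differences from -0.085 to 0.15 on single arrays, on both sides of SCR.

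The genes that end metaphase showed small differences. ESPL1, separase, read 1078, 1074 and 1089 with H2, H3 and H4, against 1203 in SCR. The knockdown arrays nearly coincided below SCR (mean -0.16 ± 0.010, 89.8% of SCR), yet limma's 95% interval, which draws on the spread of all genes, was -0.49 to 0.18. UBE2C, the ubiquitin-conjugating enzyme of the APC/C, read 1341, 1366 and 1455, against 1532 in SCR, below it on all 3 (mean -0.14 ± 0.062). PTTG1, securin, which holds separase inactive, differed by -0.13, -0.0066 and -0.019. CDC20 read 7947, 7272 and 6494, against 7140 in SCR, with H2 above, H4 below and H3 next to SCR (mean 0.015 ± 0.15). The direction of that mean turned negative under quantile normalization, while UBE2C and ESPL1 stayed below SCR under every scaling tried.

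Kinetochore genes had no common direction. CENPE, a kinesin that moves chromosomes to the spindle equator, read 1331, 1468 and 1584 with H2, H3 and H4, against 1346 in SCR. H2 was next to SCR and the others above it (mean 0.11 ± 0.13). HJURP, the chaperone that deposits CENPA, lay above SCR on each array (mean 0.075 ± 0.0078), and CENPF below on each (mean -0.062 ± 0.032). NDC80 and NUF2, which form 1 complex that grips microtubules, did not share a pattern. NDC80 differed by -0.22, 0.10 and 0.13 with H2, H3 and H4, and NUF2 by 0.018, -0.19 and 0.041.

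In the chromosomal passenger complex, BIRC5 (survivin) and CDCA8 (borealin) had means of 0.021 ± 0.095 and -0.0086 ± 0.071, and centring turned that of CDCA8 positive. BIRC5 has a second, dimmer probe set (8018860), which read 84.8, 104 and 91.4, against 81.1 in SCR, above it on each array. CDCA2, which brings the phosphatase PP1 to anaphase chromatin, read 1042, 1203 and 1266, against 1353 in SCR. All 3 knockdown arrays were lower and H2 lowest, with log2 differences of -0.38, -0.17 and -0.096 (mean -0.21 ± 0.15, limma 95% interval -0.64 to 0.21). CDCA3, an adaptor in the turnover of WEE1, read 1480, 1969 and 1844, against 1908 in SCR. Its mean of -0.12 ± 0.22 rested on H2 and was -0.0015 without it.

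Genes of spindle assembly ran in both directions. KIF2C, a kinesin that takes microtubules apart at kinetochores, read 3439, 3292 and 2951 with H2, H3 and H4, against 2862 in SCR, above it on each array (mean 0.17 ± 0.11, limma 95% interval -0.17 to 0.51). TPX2, the activator of AURKA, read 5939, 5971 and 5920, against 5523 in SCR, again above it on each (mean 0.11 ± 0.0063). KIF4A, a chromosome-binding kinesin with a near-identical copy, KIF4B, whose transcript its probes may also read, lay below SCR on each array (-0.21, -0.050 and -0.012). Centring, quantile normalization and cyclic loess each left at least 1 hairpin on the other side. NUSAP1, a microtubule bundling protein, had the widest range of the 39. It read 3524, 4806 and 5390, against 4780 in SCR, so H2 was far below, H3 level and H4 above. KIF11, the motor that pushes spindle poles apart, had the same order, at -0.27, 0.099 and 0.20. DLGAP5 and GTSE1 had means of 0.0011 and -0.030, and both changed sign under other scalings.

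Midzone and cytokinesis genes were mostly level, apart from 1 that was low with H4. KIF23, the motor of centralspindlin, read 4999, 5803 and 4140 with H2, H3 and H4, against 5479 in SCR, log2 differences of -0.13, 0.083 and -0.40 (mean -0.15 ± 0.24). PRC1, which bundles the midzone, and ECT2, which activates RhoA at the furrow, had means of -0.019 ± 0.041 and -0.0048 ± 0.024. The sign of both turned with centring. The scaffold ANLN was below SCR on each array (-0.20, -0.046 and -0.032), but not with every hairpin after centring. KIF20A, which places the passenger complex at the midzone, lay 0.22 above SCR with H2 and within 0.0088 of it with the other hairpins.

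The common markers of dividing cells were also near SCR. TOP2A, the topoisomerase that untangles chromosomes, read 8711, 8873 and 9039 with H2, H3 and H4, against 9088 in SCR. All 3 were below SCR by a little, which centring did not keep for every hairpin, with a mean of -0.034 ± 0.027 and limma's 95% interval from -0.22 to 0.15. MKI67, the antigen Ki-67, read 3495, 4290 and 4021, against 3768 in SCR, below it with H2 and above it with H3 and H4 (mean 0.057 ± 0.15).

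**Figure D3:**
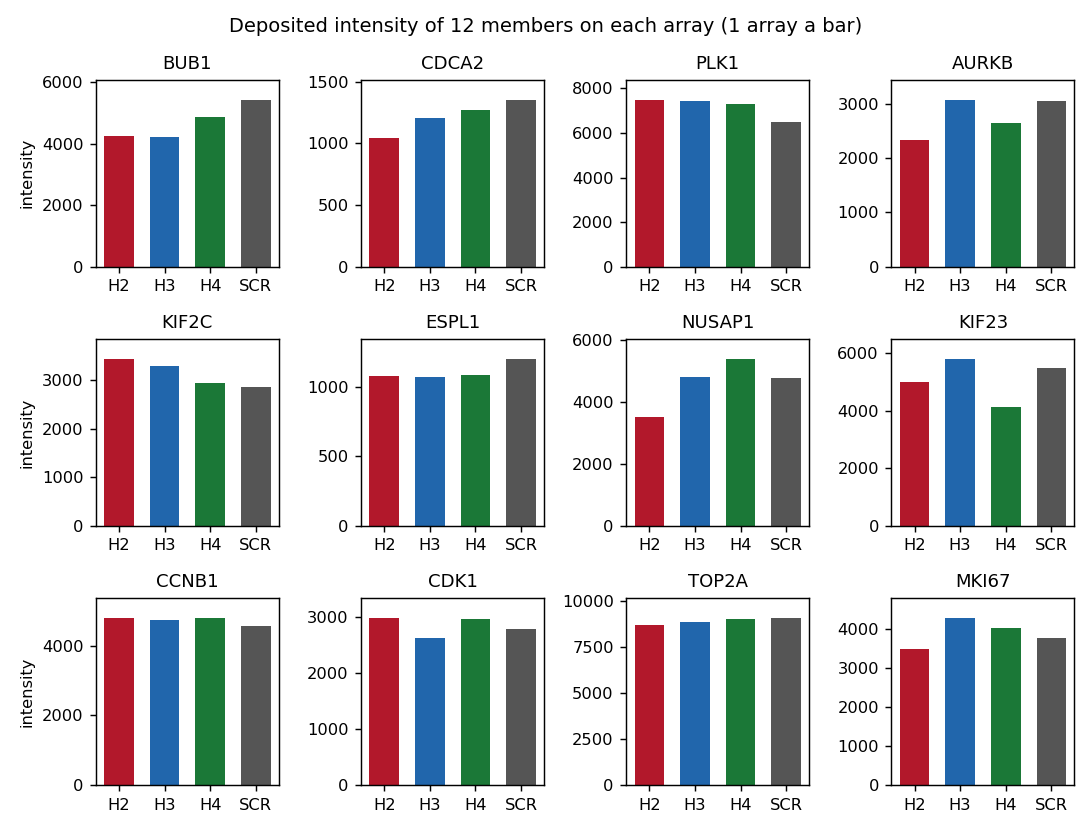
Bars give the deposited intensity of 12 of the genes on each array, in the order H2, H3, H4 and SCR, with 1 array a bar and each axis from 0. PLK1 and ESPL1 show 3 nearly equal knockdown bars on opposite sides of SCR, while NUSAP1 is low with H2 and KIF23 with H4.

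H2 most often stood farthest from SCR. It was the farthest of the 3 from SCR for 26 of the 39 (66.7%), as it was for 46.6% of all genes. H2 and H3 left about the same amount of ZFX and H4 left more. The part of the ZFX level in these differences was not tested, with 1 array for each hairpin. On H2, 8 members were at least 1.2-fold lower than SCR (20.5%, where the background was 19.8%): NUSAP1, AURKB, CDC25C, CDCA2, CDCA3, BUB1, CDC25B and KIF11. At least 1.2-fold higher on H2 was KIF2C alone (2.56% of members, background 8.54%). On H3 only BUB1 was 1.2-fold lower (background 9.14%) and 0 members were higher (background 5.89%). On H4 CCNA2 and KIF23 were 1.2-fold lower (background 13.3%) and 0 were higher (background 4.63%). At 1.5-fold there were 0 members in either direction on any hairpin, where the background was 5.61% lower and 0.992% higher for H2, 1.14% and 0.528% for H3, and 2.17% and 0.608% for H4.

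The median member differed from SCR by -0.071 with H2, 0.0079 with H3 and 0.010 with H4. Over all genes tested the medians were -0.030, -0.021 and -0.046. The middle 50% of members spanned 0.27 with H2, 0.15 with H3 and 0.13 with H4 on the log2 scale, against 0.31, 0.21 and 0.22 over all genes. The members were bright, with a median log2 intensity of 11.9 against 9.28 over all genes, and the part of brightness in these narrower spreads was not tested.

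**Figure D4:**
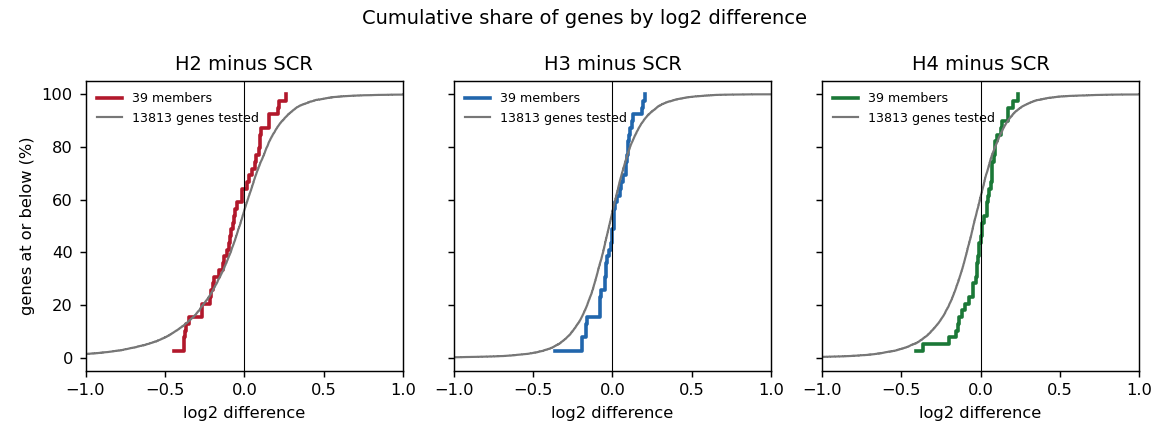
Each panel gives, for 1 hairpin, the share of genes (y axis, percent) at or below a log2 difference from SCR (x axis), for the 39 measured genes (colour) and the 13813 genes tested (grey). The coloured curves stay inside -0.44 to 0.26 with H2, -0.36 to 0.20 with H3 and -0.40 to 0.23 with H4.

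Other genes of the same machinery were counted from lists of general knowledge, beside shares over all genes of 30.6% lower and 16.9% higher with all 3 hairpins. Of 22 further checkpoint and kinetochore genes 4 were lower and 4 higher than SCR with all 3 hairpins (median of mean differences -0.0097). Of 23 further mitotic kinesins and spindle genes 7 were lower and 2 higher (median -0.035). Among 18 condensin and cohesin genes 4 were lower and 5 higher (median 0.043), and among 16 APC/C subunits and partners 3 were lower and 4 higher (median -0.026). The 17 regulators of G2/M transcription had 4 lower and 3 higher (median -0.030). None of the genes in these 5 lists had an unadjusted p under 0.05 in limma (3.23% of all genes), and 0 passed the adjusted threshold. Of 16 further centromere genes 8 (50%) were lower and 2 higher (median -0.078), with 0 at an unadjusted p under 0.05. Of 12 genes of G2 entry and its checkpoint 5 (41.7%) were lower and 2 higher (median -0.11). Of those 5, CDC25A and GADD45B were at least 1.2-fold lower with every hairpin (16.7% of the list, background 2.94%). Both had an unadjusted p under 0.05 in limma, and 0 of the 12 passed the adjusted threshold. CDC25A, a relative of CDC25B and CDC25C that was picked out after its values were seen, read 724.3, 800.9 and 733.7 with H2, H3 and H4, against 1046 in SCR. It was below SCR on each array (mean -0.47 ± 0.079, unadjusted p = 0.0204, adjusted p = 0.9998 in limma).

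FOXM1, the activator of G2/M genes, read 3248, 3568 and 3187 with H2, H3 and H4, against 3597 in SCR. It was next to SCR with H3 and lower with the others (mean -0.11 ± 0.087). MYBL2, which joins MuvB before FOXM1, read 1735, 2350 and 1544, against 1585 in SCR, and only H3 stood apart, at 0.57. WEE1, the kinase that opposes CDC25, read 2100, 2695 and 2488, against 2631 in SCR, lowest with H2.

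On H2 the median of the mitosis genes, -0.071 against -0.030 over all genes tested, lay between those of other lists. It was -0.24 for the further centromere genes, -0.26 for the genes of G2 entry and its checkpoint, and -0.24 for 22 G1/S genes. Nearer to SCR were the further kinesins and spindle genes at -0.064, the checkpoint and kinetochore genes at -0.058 and the condensin and cohesin genes at -0.016, as were the regulators of transcription at 0.010 and the APC/C genes at 0.038. On H3 the mitosis genes had a median of 0.0079, against -0.021 over all genes. The centromere, G2 entry and G1/S lists had -0.030, 0.051 and 0.033 there. On H4 the medians were 0.010 for the mitosis genes and -0.0064, -0.058 and -0.042 for those lists, against -0.046 over all genes. At least 1.2-fold lower on H2 were 8 of the 39 mitosis genes (20.5%), against 10 of the 22 G1/S genes (45.5%). The background over all genes was 19.8%. The differences between the lists were not tested, and on each hairpin they rest on 1 array.

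**Figure D5:**
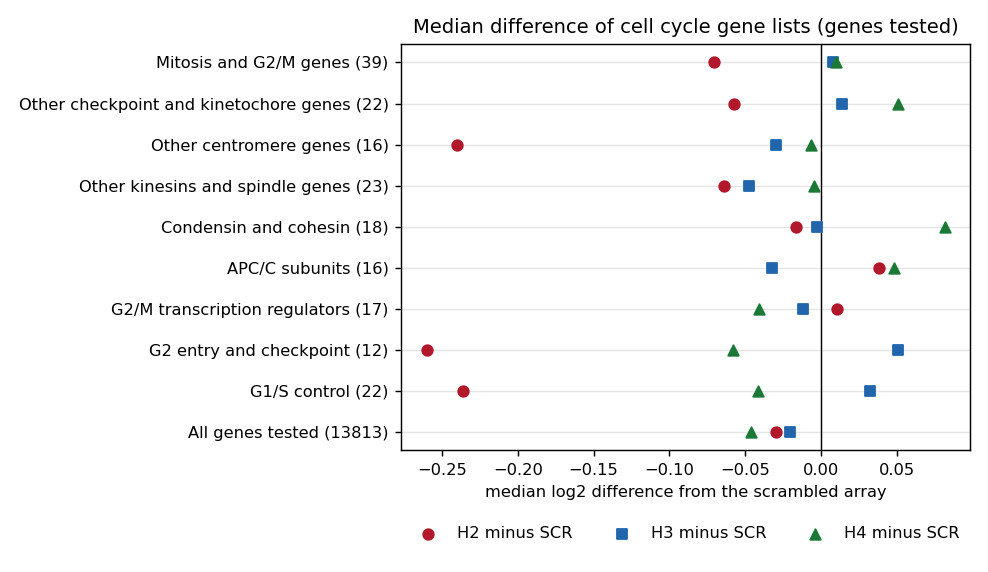
Points give the median log2 difference from SCR of each gene list (number of genes tested in brackets) for H2, H3 and H4. With H2 the mitosis genes lie at -0.071, and the centromere, G2 entry and G1/S lists between -0.26 and -0.24.

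The labelled line was checked against marker genes. VIM and CD44 were above the filter, as were GLI2, PTCH1, SOX2 and SOX9, whereas NES, GLI1, MAP2 and OLIG2 were below it. Of the markers of blood cells, PTPRC and CD3E were below the filter, and CD14, SPI1 and CD68 were above it. Of those of epithelia, EPCAM and CDH1 were below and KRT8 and KRT18 above. Of those of fibroblasts, DCN was below, and COL1A1, COL1A2, COL3A1 and LUM were above. The part of such cells in the results was not tested. Between arrays, log2 intensities had correlations of 0.992 to 0.996 over probe sets, as a description.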

How the data were processed

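The authors deposited 1 intensity per probe set and array for 33297 probe sets, normalized with RMA per the submitters' processing notes, with version, settings and genome build not given in the sources used here. The deposited values are linear (array medians 226.0 to 232.3), so log2 was taken first. RMA scales the arrays to each other, so a change in total RNA could not be seen, although the medians of the deposited values still differed slightly. Of the probe sets, 19460 carry exactly 1 symbol, for 18417 genes. The brightest probe set of each gene was kept, and 13813 genes with a mean log2 intensity of 6.78 (the 25th percentile) or more were tested. limma 3.58.1 in R 4.3.3 (lmFit, eBayes with intensity trend) set 3 knockdown arrays against 1 SCR array, with 2 residual degrees of freedom, the lone array assumed to vary like the others, and Benjamini-Hochberg adjustment at 0.05. The fit was also run on simulated data in which SCR was given the spread of the hairpins. That run could not test whether SCR varies like them, and its planted differences were larger than any member's. Single hairpins have no test. Members and lists were chosen with earlier results of these data known. Values of each array are given for ZFX, the 12 members with the largest mean difference and CDK1, CCNB1, PLK1, AURKA, AURKB, TOP2A, MKI67 and CDC20. CCNA2 and NUSAP1 were added after their values were seen. From other lists FOXM1, MYBL2, WEE1, CDKN1A and the largest 2 of each could be named. Batches could not be examined, and the number of arrays limits the precision.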

Additional observations from a re-analysis of the deposited data

How the results depend on the processing

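In limma 0 genes passed under all 11 alternatives, with 248 to 691 genes at an unadjusted p under 0.05. After centring each array on its median, 5 members were lower than SCR with all hairpins (BUB1, CDCA2, CENPF, ESPL1 and UBE2C), where the share over all genes was 23.3%. Higher with all hairpins were then CCNB1, CENPE, ECT2, HJURP, KIF20A, KIF2C, PLK1 and TPX2, where the share over all genes was 23.6%. The excess of lower over higher genes, in members and in all genes, was thus not kept by centring. The median of all genes was then -0.0026 and that of the members 0.023. Leaving out 1 hairpin gave 11 to 14 lower members (39.4 to 40.6% of all genes were lower). It gave 8 to 13 higher ones (23.5 to 27.9% of all genes), since fewer arrays had to pass. At least 1.2-fold lower were then 0 to 1 members, where the share over all genes was 3.96 to 6.49%. That 1 was BUB1 without H4, where the share was 5.60%. The members' median was then -0.034 to -0.0015. ZFX stayed between -0.94 and -0.73. After centring PLK1 had an unadjusted p of 0.0331 (adjusted p = 0.9997 in limma), and without H4 BUB1 had an unadjusted p of 0.0280 (adjusted p = 0.9997 in limma). No more than 10 of the 39 means changed sign under any 1 alternative, with the 10 seen without H2, and none of these was past the threshold. With 1 SCR array its error could not be measured, and differences under about 1.2-fold were mostly out of reach. Larger ones were not all within reach, since limma's interval lay inside 1.5-fold for only 31 of the 39 members.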

Other observations

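Some genes of the same processes, picked from their lists by size, stood apart on single arrays without passing the test. At least 1.5-fold lower on H2 were 5.61% of all genes. So were 1 of 18 condensin and cohesin genes (5.56%), 1 of 16 further centromere genes (6.25%) and 1 of 23 further kinesins and spindle genes (4.35%). The shares were larger for genes of G2 entry and its checkpoint (2 of 12, 16.7%) and for regulators of G2/M transcription (2 of 17, 11.8%). Of the further checkpoint and kinetochore genes and of the APC/C genes there were 0. On H3 1.14% of all genes were at least 1.5-fold lower, as KIF2A was, and 0.528% higher, as SPC24 was. SMC1A, a cohesin subunit encoded on the X chromosome, read 581.4 with H2, 1198 with H3 and 1235 with H4, against 1365 in SCR, so that H2 alone was far lower (log2 difference -1.23). CIT, citron kinase of cytokinesis, read 1156, 1821 and 1611, against 1899 in SCR, again lowest with H2. CENPI, a centromere protein, followed the same order at -0.65, -0.080 and -0.22. SPC24, the partner of NDC80 and NUF2 at the kinetochore, read 494.1, 1002 and 891.8, against 653.2 in SCR, below it with H2 and above it with H3 and H4. KIF2A, a relative of KIF2C, was lower with H3 alone (3107, against 4723 in SCR).

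In the list of G2 entry and its checkpoint, GADD45B, a stress-induced protein, read 425.7, 497.9 and 498.2 with H2, H3 and H4, against 713.0 in SCR. All 3 knockdown arrays were below SCR, with H2 lowest and H3 and H4 nearly equal (mean log2 difference -0.59 ± 0.13, SD, n = 3 hairpins). GADD45B did not pass limma's adjusted threshold. Its relative GADD45G read 195.9, 305.1 and 439.4, against 450.3 in SCR, low with H2 and H3 and next to SCR with H4. CDKN1A, the p53-induced inhibitor of cyclin-dependent kinases, read 718.3, 1007 and 1045, against 1047 in SCR, at log2 differences of -0.54, -0.056 and -0.0024, so that H2 stood apart. Of the 17 regulators of G2/M transcription 4 (23.5%) were lower with all 3 hairpins, where the background was 30.6%. At least 1.2-fold lower with every hairpin were 0 of the 17 (background 2.94%). Among those 4, picked for the size of their differences, were LIN52 of MuvB and NFYA of NF-Y. LIN52 differed by -0.71, -0.29 and -0.15 with H2, H3 and H4, and NFYA by -0.57, -0.35 and -0.15. Neither passed the test (adjusted p = 0.9998 for both in limma).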
